A study of Mesocricetus auratus with 8 samples.

Results

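The sodium-potassium pump (Na,K-ATPase) moves sodium out of the cell and potassium into it at the cost of ATP, and so sets the ion gradients that keep skeletal muscle excitable. Each pump joins a catalytic alpha subunit to a glycosylated beta subunit, which is needed for folding, delivery to the membrane and potassium handling, and often also to a small single-span FXYD protein that tunes its kinetics. In adult skeletal muscle, the FXYD protein phospholemman is typical of muscle fibers. The genes described here are 6 of the 17590 genes with values, chosen by symbol: the beta subunit genes Atp1b1, Atp1b2, Atp1b3 and Atp1b4, and the FXYD genes Fxyd1 and Fxyd5. The list was proposed with the difference between cold and control libraries known, so for these 6 genes that difference is given as a description. None of their p-values is printed, and counts past thresholds stand only beside the share of all genes. The list holds no catalytic subunit, and the other FXYD genes are described with the wider pump system. The shared name needs a caution, since the Atp1b4 protein of placental mammals is known as a muscle protein of the inner nuclear membrane and not as a partner of pump alpha subunits.

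RNA was sequenced from primary satellite cells (SCs), the stem cells of skeletal muscle, of Syrian hamsters, a mammalian hibernator. The donors were wild-type males aged 8 to 16 weeks, and the SCs were enriched from hindlimb muscle by preplating and grown at 37°C for 48 h and then for 24 h in growth medium with 100 mM HEPES. Control libraries (n = 4) were taken at that point, on day 3 of culture, and cold libraries (n = 4) after a further 24 h at 4°C in the same medium. The titles of all controls say day 3, but another label gives their time at 37°C as 3, 4, 5 and 6 days in the order of replicates 1 to 4, which differs from the titles for replicates 2 to 4. By the titles no library was held at 37°C for the added 24 h, so cold and time in culture cannot be told apart. The study calls the replicates biological, and the labels do not say whether they came from separate animals.

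Expected read counts summed to between 16530747 and 18533801 per library, and all 48 counts of the 6 genes were whole numbers. All 6 genes were among the 12506 that entered the edgeR fit. A principal component analysis placed replicates 1 and 2 of both groups apart from replicates 3 and 4 on its first component (54.5% of the variance), ahead of the difference between cold and control (17.9%). The SC and myoblast genes Pax7 and Myod1 had at least 10.8 and 424 TPM (transcripts scaled for length and library) in every library, and 7 such genes summed to 1781 to 2178 TPM in controls and 1703 to 1996 TPM in the cold. The summed level of 8 fibroblast genes lay between 1254 and 1798 TPM in control and between 1235 and 1746 TPM in cold libraries. In the same order of groups, 4 endothelial genes summed to 1.96 to 3.87 and 2.01 to 3.63 TPM, 4 immune genes to 23.7 to 50.7 and 23.4 to 52.0 TPM, and 4 epithelial genes to 181 to 264 and 183 to 278 TPM. The latter sums were nearly all Cd68 and Krt18: the immune genes Ptprc, Adgre1 and Itgam stayed at 0 to 0.07 TPM in every library, and the epithelial genes Epcam, Cdh1 and Krt8 at 0 to 0.74 TPM.

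In control libraries, the level per transcript length fell in the order Atp1b3, Atp1b1, Fxyd5, Fxyd1, Atp1b4 and Atp1b2. Each of the first 4 genes lay above the next in all 8 libraries with no overlap of values. Atp1b4 and Atp1b2 overlapped, and their order is not larger than the spread. Ranked by mean control TPM among all genes with values, Atp1b3 stood at the 95.9th percentile, Atp1b1 at the 91.4th, Fxyd5 at the 71.3rd, Fxyd1 at the 50.7th, Atp1b4 at the 32.0th and Atp1b2 at the 27.9th.

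**Figure D1:**
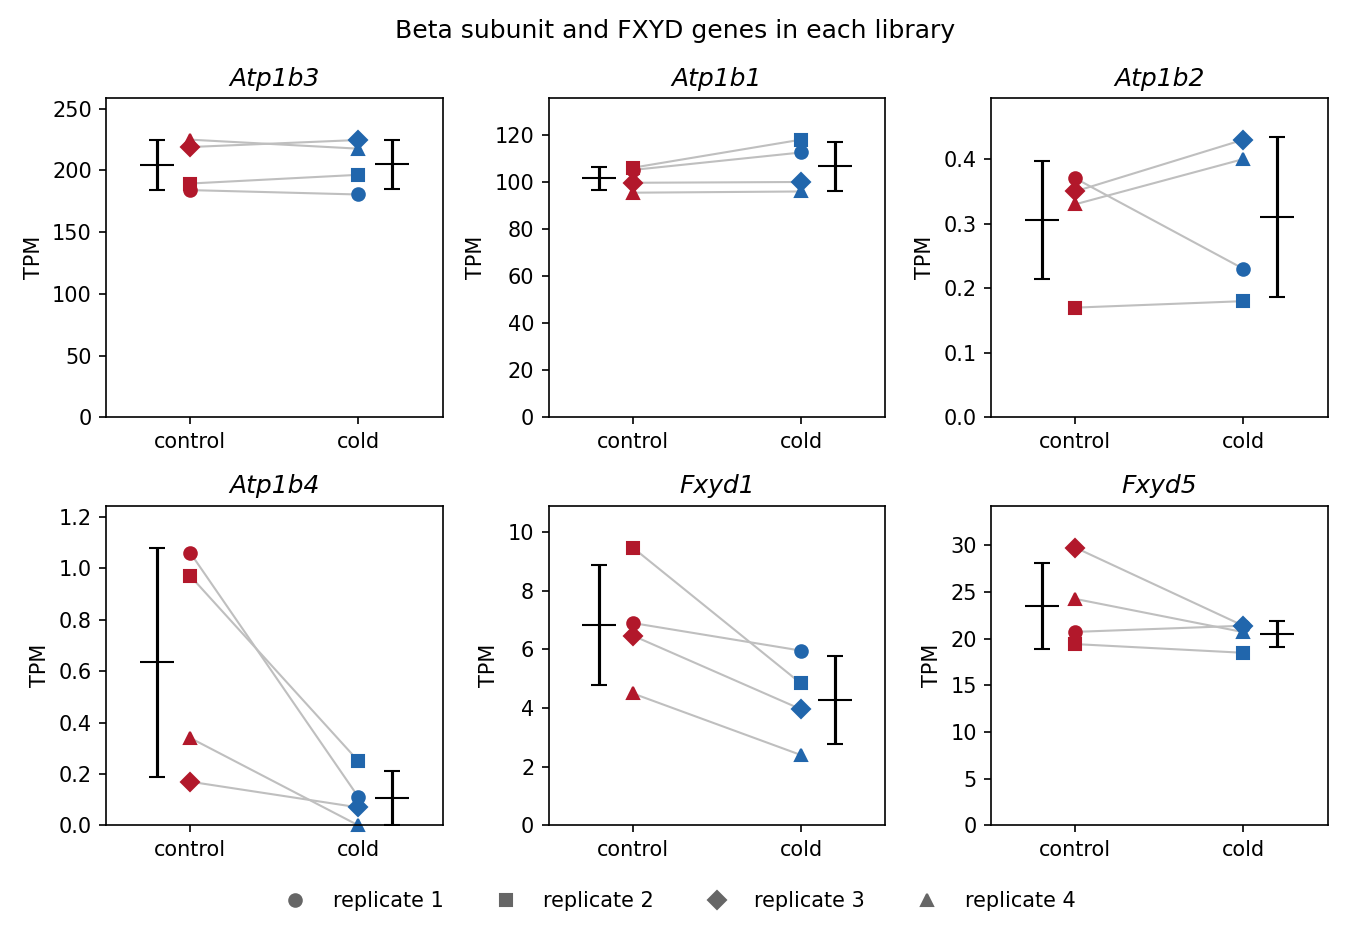
TPM of the 6 genes in control and cold libraries (one panel a gene, each axis from 0), where symbols mark the replicate number, grey lines join libraries of the same number, and bars give the mean ± SD (n = 4). Atp1b3 lies between 180 and 225 TPM and Atp1b1 between 95.6 and 118 TPM in all libraries. All 4 lines run downward for Atp1b4 and Fxyd1 (as in 10.5% of all genes tested) and upward for Atp1b1 (as in 12.8%).

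Atp1b3 (NCBI Gene 101836917), a widely expressed beta subunit, was the most abundant of the group. Its levels were 184, 189, 219 and 225 TPM in control replicates 1 to 4 and 180, 196, 225 and 218 TPM in cold replicates 1 to 4. The groups overlapped throughout, and in both of them replicates 3 and 4 were above replicates 1 and 2. The mean was 204 ± 20.6 TPM in controls and 205 ± 20.1 TPM after cold (SD, n = 4 each). The log2 fold change of cold against control was −0.01 (SE, standard error, 0.07), and the ratio of cold to control was up in 2 and down in 2 of the 4 pairs of libraries with the same number.

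Atp1b1 (101828802), the main beta subunit of most tissues including muscle, was next. It had 105, 106, 99.8 and 95.6 TPM in control replicates 1 to 4 and 113, 118, 100 and 96.1 TPM in cold replicates 1 to 4. Here replicates 1 and 2 were the higher ones in both groups, the reverse of Atp1b3. The mean was 102 ± 4.97 TPM in controls and 107 ± 10.4 TPM after cold (SD, n = 4 each), with a log2 fold change of 0.05 (SE 0.09). Cold was above control in 4 of 4 pairs, as in 12.8% of all genes tested, and the differences within pairs were small, from 0.0014 to 0.10 in log2 CPM (counts scaled to library size by TMM). Without cold replicate 2 the log2 fold change turned to −0.02.

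Atp1b2 (101833660), a beta subunit first described as an adhesion molecule of glia, was close to the detection floor. Control replicates 1 to 4 held 12, 6, 11 and 11 reads and cold replicates 1 to 4 held 8, 6, 14 and 13 reads. The 40 control and 41 cold reads gave a cold to control ratio of 1.01 after division by library totals, with a 95% counting interval (exact Clopper-Pearson) from 0.634 to 1.59. The fitted log2 fold change was 0.0017 (SE 0.35), and it lay between −0.19 and 0.17 when single libraries were left out. A change within the counting interval was not detectable at this depth, and the spread between libraries adds to that limit. Schwann and glial genes were low as well, with the summed TPM of 4 of them between 2.39 and 3.91 in control and between 2.41 and 3.35 in cold libraries. Sox10 did not exceed 13 reads in any library.

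Since TPM is scaled by length, the conventional beta genes Atp1b1, Atp1b2 and Atp1b3 can be expressed as shares of their sum in each library. Atp1b3 made up 66.6% ± 3.28 of the pool in control and 65.6% ± 4.18 in cold libraries, and Atp1b1 33.3% ± 3.29 and 34.3% ± 4.22 (SD, n = 4 each). Atp1b2 made up 0.099% in both groups. The Atp1b3 share lay between 61.5% and 64.0% in the 4 libraries of replicates 1 and 2 and between 68.6% and 70.1% in those of replicates 3 and 4, so the pool differed more between these sets of libraries than between temperatures. The whole pool summed to 306 ± 15.9 TPM in controls and 312 ± 13.3 TPM after cold.

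**Figure D2:**
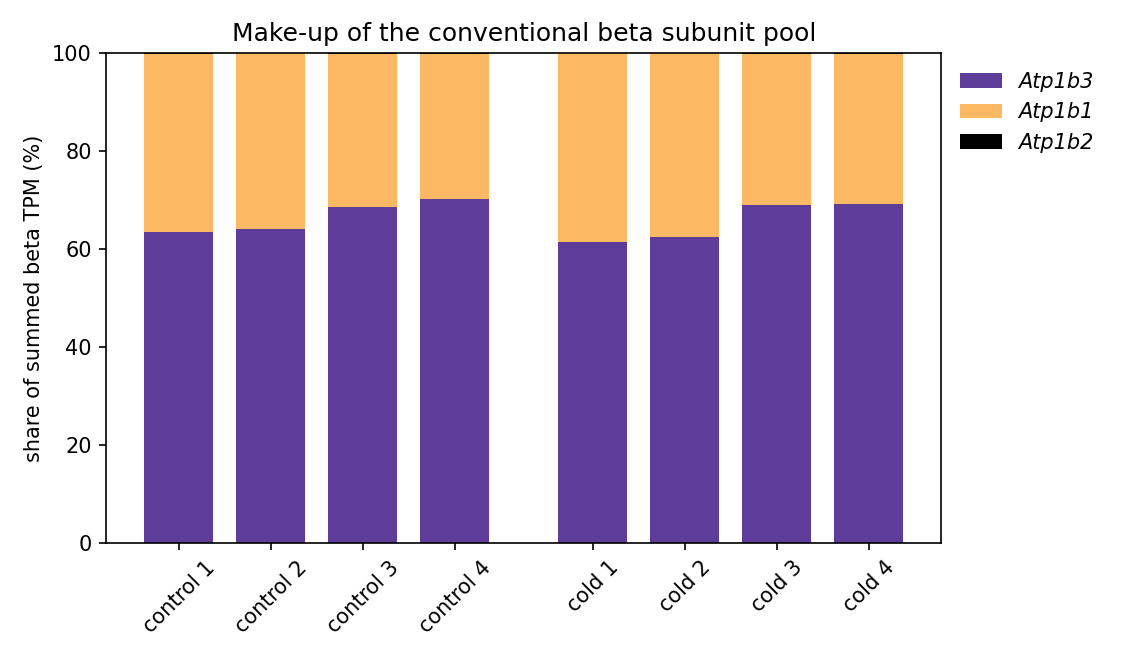
Share of the summed TPM of Atp1b1, Atp1b2 and Atp1b3 taken by each gene (%, stacked bars from 0 to 100, one bar a library). Atp1b3 holds 61.5% to 70.1% of every bar, is higher in replicates 3 and 4 of both groups, and Atp1b2 is too small to be seen.

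Atp1b4 (101844422) showed the largest difference of the 6 genes. Control replicates 1 to 4 held 46, 44, 7 and 15 reads, and cold replicates 1 to 4 held 5, 11, 3 and 0 reads. Control replicates 1 and 2 stood far above the other 6 libraries, cold was below control in 4 of 4 pairs (as in 10.5% of all genes tested), and the group ranges overlapped because cold replicate 2 exceeded control replicate 3. The mean was 0.635 ± 0.446 TPM in controls and 0.108 ± 0.105 TPM after cold (SD, n = 4 each). The 112 control against 19 cold reads gave a ratio of 6.01 of control to cold after division by library totals, with a 95% counting interval from 3.68 to 10.4. Intervals of this kind cover counting error only and leave out the spread between libraries. They take each read as a separate molecule, which cannot be checked, as the reads carry no molecular identifiers. The fitted log2 fold change was −2.56 (SE 0.79, or 0.36 when the replicate number entered as a block), and it was −3.40 without cold replicate 2. Replicates 1 and 2 alone gave −2.54 (SE 0.36), and in replicates 3 and 4 alone the gene had too few reads to be fitted, with 22 control and 3 cold reads. A count of 0, as in cold replicate 4, allows up to 3 reads. The gene passed the filter on low counts through 3 control libraries and cold replicate 2.

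Atp1b4 moved beside differentiated muscle genes. The summed TPM of 12 such genes, among them Myog, Mymk, Myh3 and Acta1, lay between 5996 and 11608 in control and between 3766 and 6759 in cold libraries. Actc1 was the largest part, with 3505 to 6731 TPM in control and 2495 to 4513 TPM in cold libraries. In both groups this sum was higher in replicates 1 and 2 than in replicates 3 and 4. All 12 had a negative log2 fold change (median −1.44, against 0.0071 over all genes tested), and an adjusted p of 0.05 was passed by 1 of them with edgeR (0.072% of all genes in this direction), by 8 with DESeq2 (1.1%) and by all 12 under the replicate block (4.07%). The list holds genes that the study had picked as lower in these libraries, so its direction and calls are not independent evidence. Of the 7 SC and myoblast genes, 0 passed with edgeR or DESeq2 (0 and 2 at an unadjusted p under 0.05) and 3 were lower under the block, Cdh15, Itga7 and Myod1, with log2 fold changes of −0.32, −0.29 and −0.13. The Pearson correlation of Atp1b4 with the 12 differentiated muscle genes in log2 CPM ranged from 0.78 to 0.96 over the 8 libraries, which fall into 2 sets and 2 groups, so it is only a description. In bulk RNA, fewer differentiated cells and less RNA in each of them cannot be told apart, and the part of either in the Atp1b4 difference was not tested.

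**Figure D3:**
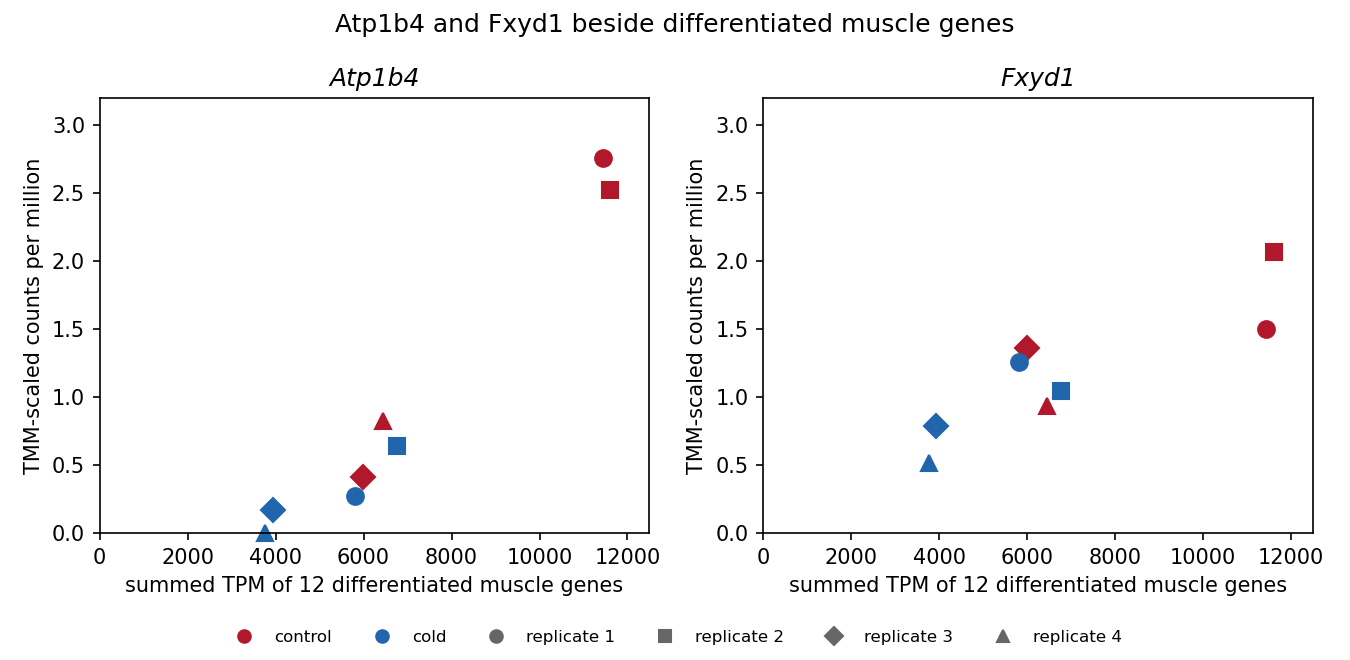
CPM (scaled by TMM) of Atp1b4 and Fxyd1 against the summed TPM of 12 differentiated muscle genes, of which Actc1 is the largest part. Each point is a library (red control, blue cold, symbol by replicate). Control replicates 1 and 2 sit at the upper right in both panels and cold replicates 3 and 4 at the left.

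Among 10487 named genes with a mean of at least 1 TPM, those whose log2 CPM followed Atp1b4 most closely over the 8 libraries were Stac3 (Pearson r = 0.99, Spearman rho = 0.98), Cacng1 (0.99 and 1), Myot (0.99 and 1), Psen2 (0.98 and 1) and Ldb3 (0.98 and 0.98). Stac3 and Cacng1 encode parts of the calcium channel complex of excitation-contraction coupling, Myot and Ldb3 encode Z-disc proteins, and Psen2 encodes a presenilin. Cacng1 averaged 6.95 TPM in the 4 controls and 1.86 TPM in the 4 cold libraries, while Psen2 had 25.6 and 23.8 TPM.

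The best matches of Atp1b1 were Tsn (r = 0.99, rho = 0.98) and Itsn1 (0.99 and 0.98), and those of Atp1b3 were Ndst3 (0.99 and 0.90) and Ang (0.99 and 0.95). The log2 fold changes of these 4 genes between cold and control lay between −0.04 and 0.11. For Fxyd1 the closest gene was Phka2 (r = 0.97, rho = 0.90), for Fxyd5 Abhd16a (0.95 and 0.67) and for Atp1b2 Ubac2 (0.97 and 0.98).

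Fxyd1 (101832822) encodes phospholemman, the FXYD protein of heart and skeletal muscle, which restrains the pump until it is phosphorylated. Its level was 6.90, 9.47, 6.47 and 4.5 TPM in control replicates 1 to 4 and 5.96, 4.84, 3.96 and 2.40 TPM in cold replicates 1 to 4. Cold was below control in 4 of 4 pairs (as in 10.5% of all genes tested), but the group ranges overlapped. The mean was 6.84 ± 2.04 TPM in controls and 4.29 ± 1.5 TPM after cold (SD, n = 4 each), from 101 and 64 reads. The log2 fold change was −0.69 (SE 0.33, or 0.23 with the replicate block), and it was −0.63 in replicates 1 and 2 alone and −0.81 in replicates 3 and 4 alone. Its correlation with the 12 differentiated muscle genes ranged from 0.69 to 0.93 over the 8 libraries.

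Fxyd5 (106022089) encodes dysadherin, an FXYD protein known for weakening cell adhesion. It had 20.7, 19.4, 29.8 and 24.3 TPM in control replicates 1 to 4 and 21.4, 18.5, 21.4 and 20.7 TPM in cold replicates 1 to 4. Control replicate 3 was the highest library, and the cold libraries lay within a narrow range that the controls overlapped. The mean was 23.5 ± 4.62 TPM in controls and 20.5 ± 1.37 TPM after cold (SD, n = 4 each). The log2 fold change was −0.21 (SE 0.13), but −0.10 without control replicate 3, −0.05 in replicates 1 and 2 alone and −0.35 in replicates 3 and 4 alone. Its correlation with the differentiated muscle genes lay between −0.22 and 0.26, lower than that of Fxyd1 throughout.

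**Figure D4:**
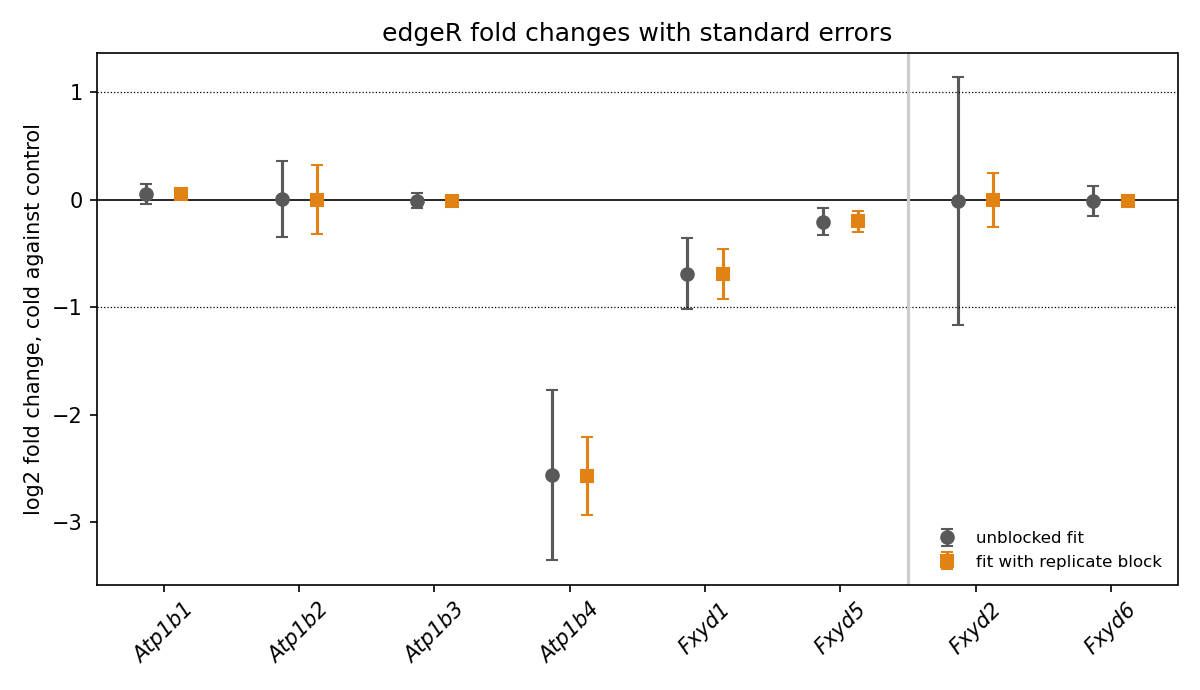
Log2 fold change of cold against control with its standard error, from edgeR without (grey circles) and with a replicate block (orange squares); the 6 beta and FXYD genes of the list stand left of the line and 2 other FXYD genes right of it, and dotted lines mark a log2 fold change of 1 in either direction, which only Atp1b4 (−2.56) passed among the genes shown.

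Counted together, 4 of the 6 genes had a negative and 2 a positive log2 fold change, with a median of −0.11. The study used an absolute log2 fold change of at least 1 and a Q value under 0.05, and names no adjustment method. DEGs were defined here by the same fold threshold and a Benjamini-Hochberg adjusted p under 0.05. By these, 0 of the 6 genes were called lower with edgeR, where 0.04% of all genes were (0.072% by adjusted p alone). Under the replicate block 1 of 6, Atp1b4, was called lower, where 0.808% of all genes were, and 0 of 6 were called with DESeq2, where 0.528% were (1.1% by adjusted p alone). At an unadjusted threshold of 0.05, Atp1b4 was the only one of the 6 with edgeR (4.13% of all genes lower) and DESeq2 (3.93%), and under the replicate block 2 of 6, Atp1b4 and Fxyd1, were lower (9.76%). The same contrast was known when the genes were listed, so nothing is read from these counts.

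The wider pump system was taken as 31 further genes: other FXYD genes, the related proton-potassium pumps, the Nkain genes whose proteins bind the pump, carriers that couple transport to sodium or potassium, enzymes and scaffolds that act on the pump or its setting in the membrane, and 2 genes tied to the Atp1b4 protein (Snw1 and Smad7). Of these, 29 had values and 21 were tested. With edgeR 0 of 21 passed an adjusted p of 0.05 in either direction, with or without the fold threshold, and so it was with DESeq2. At an unadjusted p under 0.05, 1 was lower (Prkaca) and 1 was higher (Snw1) with either tool, against 4.13% of all genes lower and 2.57% higher with edgeR and 3.93% and 1.98% with DESeq2. With the replicate block, 0 of 21 passed both thresholds, against 0.808% of all genes in the lower direction. Without the fold threshold 1 of 21, Prkaca, was lower, against 4.07%, and 0 were higher, against 1.26%. At an unadjusted p under 0.05 that fit gave 3 lower and 4 higher, against 9.76% and 8.48% of all genes.

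Of the other FXYD genes, Fxyd6 was the most abundant of the family and Fxyd2 parted the libraries. Fxyd6 (101838927) had 39.8 ± 7.95 TPM in controls and 39.8 ± 7.17 TPM after cold (SD, n = 4 each), and its log2 fold change of −0.02 (SE 0.14, edgeR adjusted p = 0.999) differed in sign between settings. Fxyd2 (106021095), the gamma subunit best known from the kidney, had 1, 1, 32 and 42 reads in control replicates 1 to 4 and 1, 0, 36 and 39 reads in cold replicates 1 to 4. Replicates 1 and 2 were thus at or near 0 in both groups while replicates 3 and 4 held 5.05 to 6.07 TPM, and the 76 control and 76 cold reads were equal in number. Fxyd7 was listed at 0 in all 8 libraries, and Fxyd3 did not exceed 6 reads in any. In the summed TPM of the 5 detected FXYD genes, Fxyd5 took 31.9% ± 0.989 in control and 30.4% ± 3.10 in cold libraries, and Fxyd1 9.75% ± 4.27 and 6.53% ± 2.84 (SD, n = 4 each).

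**Figure D5:**
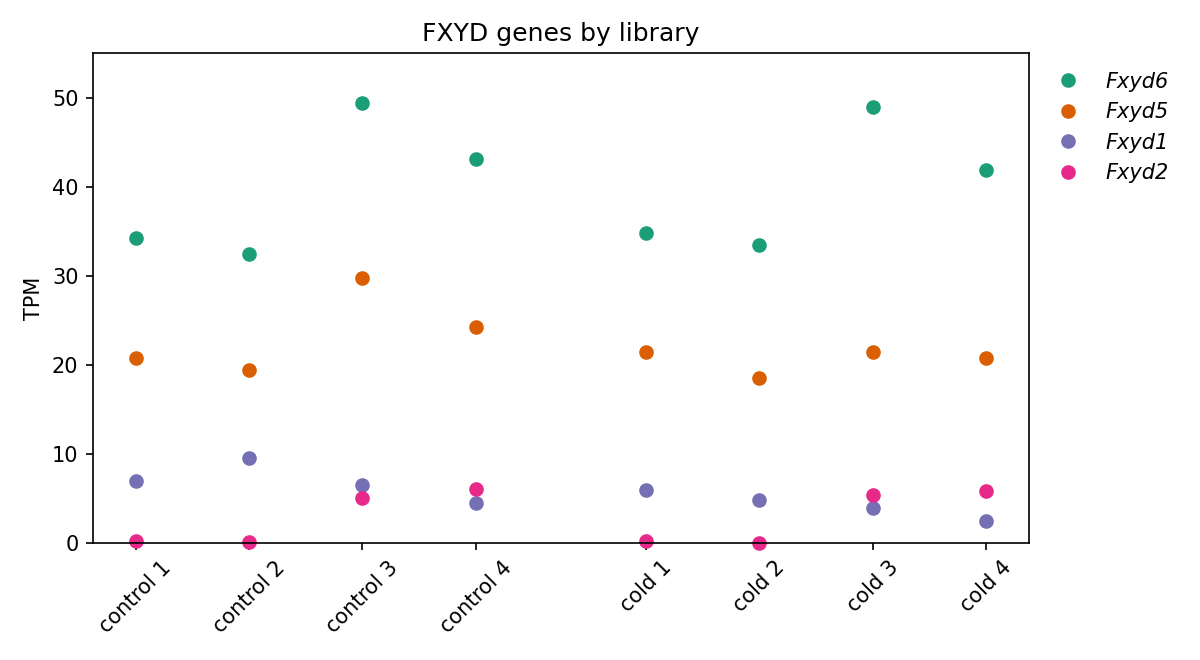
TPM of Fxyd6, Fxyd5, Fxyd1 and Fxyd2 in each control and cold library (linear axis from 0, one point a gene and library). Fxyd2 is at 0 to 0.23 TPM in replicates 1 and 2 and at 5.05 to 6.07 TPM in replicates 3 and 4 of both groups, and Fxyd6 is also higher in the latter.

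Among the genes that act on the pump, Prkaca, the catalytic subunit of protein kinase A, which phosphorylates phospholemman, had 126 ± 4.81 TPM in controls and 111 ± 2.58 TPM after cold (n = 4 each, SD). Its log2 fold change was −0.18 (SE 0.06, edgeR adjusted p = 0.521), and with the block it passed (SE 0.04, edgeR adjusted p = 0.0123). Fits on each set of replicates, chosen after seeing the data, hold only n = 2 libraries a group. They gave −0.26 in replicates 1 and 2 alone (edgeR adjusted p = 0.000662, where 853 genes were lower by adjusted p alone). In replicates 3 and 4 alone the value was −0.11 (edgeR adjusted p = 0.997). All cold TPM values lay below all control values, as in 2.41% of genes tested (exact two-sided permutation p = 0.0286, n = 4 each, the smallest p that 70 arrangements of 4 against 4 allow). Nkain1, the only Nkain gene with enough reads, had 97.6 ± 1.96 TPM in controls and 102 ± 0.916 TPM after cold, with no overlap in TPM, as in 2.27% of genes tested (exact two-sided permutation p = 0.0286, n = 4 each). In TMM-scaled CPM the groups overlapped, cold was higher in 3 of 4 pairs, and the log2 fold change was 0.04 (SE 0.05, edgeR adjusted p = 0.999). Snw1, a transcriptional coregulator known to bind the Atp1b4 protein, had 71.4 ± 4.88 TPM in controls and 78.2 ± 1.89 TPM after cold (SD, n = 4 each), and its log2 fold change was 0.12 (edgeR adjusted p = 0.726, and 0.141 when blocked). The 7 carriers tested, such as the cotransporter gene Slc12a2, had a median log2 fold change of −0.05, and 0 of 7 passed an adjusted p of 0.05 with edgeR with or without the block. Permutation tests on TPM were run for each of the 29 pump-system genes with values and took no account of the pairs. The lowest Benjamini-Hochberg adjusted permutation p was 0.414, that of Nkain1 and Prkaca. With 0.0286 as the smallest p, an adjusted p under 0.05 would need many genes at that floor at once. The adjusted values therefore decide little.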

How the data were processed

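Per the labels and the study's methods, polyA libraries were sequenced in paired-end mode, and HISAT and HISAT2 are named in the submitters' processing notes. The counting program, genome build and annotation are not given in the sources used here, so no coordinates are given. The authors deposited 1 table with expected counts (not normalized), TPM values scaled within each library, and normalized counts, a signal scaled by 1 factor per library that was not used. Gene identifiers of all 6 genes matched the RefSeq table. Expected counts were rounded and fitted with edgeR 4.0.16 (R 4.3.3; filterByExpr, TMM, quasi-likelihood F test, Benjamini-Hochberg over 12506 genes). Standard errors are the absolute log2 fold change over the square root of F. DESeq2 1.42.0 and limma 3.58.1 served as alternatives, and figures used matplotlib 3.10.9. The fit was tested on simulated counts. These held no difference between sets of replicates, so that test does not bear on the split of the real libraries.

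The 6 genes and all gene lists were chosen with earlier results of these data known. Genes named are the 6, the pump-system and marker lists, and for each of the 6 up to 5 genes with the highest Pearson correlation in log2 CPM (prior count 2). Some genes of the pump system are not reported here. Libraries of the same number were taken as pairs: their deviations from the group means correlated at 0.61, 0.62, 0.65 and 0.66 over 12506 genes, while libraries of different number correlated at 0.43 to 0.59 within replicates 1 and 2 or 3 and 4 and at −0.61 to −0.55 across these sets. Much of the pairing is thus shared by each set, and the labels do not say what a number marks. Replicates of a group differed by more than sampling noise (chi-square per gene 2.46 to 27.0, where about 1 marks repeated sampling), so no library was counted as a copy. p-values measure the spread between these libraries, which the study calls biological replicates without naming their animals in the labels.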

Additional observations from a re-analysis of the deposited data

Results flagged for a closer look

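Of 54 groups of 4 libraries tested among the 6 genes and the pump-system genes, 3 held a value set apart from the others by Dixon's criterion, and chance gives about 1 in 20, or 2.7. Slc8a1, the sodium-calcium exchanger gene, had 1.13 TPM in control replicate 4 against 0.78 to 0.79 TPM in the other controls. Slc12a2 had 12.87 TPM in cold replicate 3 against 14.41 to 14.68 TPM in the other cold libraries. Ank2, which encodes a membrane scaffold, had 5.25 TPM in control replicate 3 against 6.71 to 6.83 TPM in the other controls. None of the 6 beta and FXYD genes was set apart in either group.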

How the results depend on the processing

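The direction of Atp1b4 and Fxyd1 was negative under every alternative that gave a value; Atp1b4 had too few reads under the stricter filter and in replicates 3 and 4 alone. The log2 fold change of Atp1b4 was −0.52 with limma on log2(TPM + 1), a scale that understates changes of low genes, and lay between −3.40 and −2.16 when single libraries were left out. The ranges over left-out libraries were −0.015 to 0.10 for Atp1b1 and −0.049 to 0.041 for Atp1b3. Shares of the beta pool computed from CPM, which ignores length, were 43.6% and 44.7% for Atp1b1 and 56.2% and 55.1% for Atp1b3 in control and cold libraries.

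With the replicate block, 101 genes were lower and 5 higher by both thresholds, against 5 and 0 without it, and 509 were lower and 158 higher by adjusted p alone, against 9 and 0. In the pump system the block gave 0 lower genes by both thresholds and 1 (Prkaca) by adjusted p alone. Lower genes by both thresholds numbered 66 with DESeq2, 8 with library totals, 15 without a filter, 3 with the stricter filter (a mean of 10 counts in each group) and 3 and 3 with limma on log2(TPM + 1) and log2(TPM + 0.1). By adjusted p alone they numbered 137, 14, 25, 4, 4 and 4, and DESeq2 gave 5 higher. Leaving out single libraries gave 0 to 33 lower and 0 to 1 higher by both thresholds, and 0 to 45 and 0 to 1 by adjusted p alone. The highest counts, 33 and 45 lower, came without control replicate 3, and the count was 0 without cold replicate 1, 3 or 4 or control replicate 4, and at most 3 by both thresholds without cold replicate 2 or control replicate 1 or 2.

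Fits on replicates 1 and 2 alone and on replicates 3 and 4 alone were chosen after seeing the data. The former gave 175 lower and 8 higher genes by both thresholds and 853 and 589 by adjusted p alone. In the pump system it gave 2 lower (Prkaca among them) and 3 higher (Snw1 among them) by adjusted p alone. The share of genes tested in that fit is not given, so nothing is read from these counts. The fit on replicates 3 and 4 alone gave 27 and 1, and 48 and 2.

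Uncalled genes near 0 changed sign. Fxyd6 was at 0.0029 and 0.0031 with limma on log2(TPM + 1) and log2(TPM + 0.1) and at −0.12 to 0.083 without single libraries, and Fxyd2 was at 0.011 in replicates 3 and 4 alone and at −0.64 to 0.68 without single libraries. The cause of these shifts was not tested. At the depth of Atp1b4, Atp1b2 and Fxyd1 (0 to 46 reads a library), counting error limits what can be seen.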
